A study of Homo sapiens with 16 samples.

Results

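The genes described here carry a LINC symbol, the placeholder name for a long intergenic non-coding RNA, with 5 digits after the letters. Of 57820 entries in the deposited table, 547 have such a symbol, and the 82 with a mean of 20 or more normalised read counts over all 16 libraries are the LINC members. They were chosen by this mean level, so the level is a description and supports nothing below. The last members inside this limit were LINC00999 at 20.1, LINC00632 at 20.3, LINC00893 at 21.4, LINC00085 at 22.0 and LINC01001 at 22.3 normalised counts. The nearest symbols outside it were LINC00865 at 19.5, LINC00087 at 19.2, LINC00473 at 17.0, LINC01036 at 16.8 and LINC00221 at 16.7. In all, 465 LINC symbols lay below 20, and 232 of those were listed at 0 in every library.

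RNA-seq was done on 3 human T-cell leukaemia lines, HPB-ALL, CUTLL1 and KOPTK1, in which a long non-coding RNA called lnrCXCR4 was targeted. The targeted libraries comprised 2 per line from cells given CRISPR guides by lentivirus (sgRNA) and, in CUTLL1 and KOPTK1, 2 per line from cells given antisense oligonucleotides (ASO) at 1 uM. Their controls were non-targeting guide libraries, 2 in HPB-ALL and 1 each in CUTLL1 and KOPTK1, and 1 scrambled-oligonucleotide library each in CUTLL1 and KOPTK1. This gives 10 targeted and 6 control libraries in 5 experiments. The titles number the targeted libraries as guide or ASO 1 and 2 and the descriptions as replicates, so they may be different guides and oligonucleotides. They were used here as replicates of targeting, and each SE then holds any difference between agents. Whether replicate libraries stem from separate cultures is not stated, so a p-value reflects library-to-library spread alone, part of which may be technical. No table entry carries the name of the targeted RNA (0 entries), so its own level is not analysed here and the labels are not checked by their target.

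Long non-coding RNAs are transcribed like messenger RNAs, and most are capped, spliced and polyadenylated, but they are not read into a known protein. Some stay at the chromatin where they are made and act on nearby genes, while others bind proteins or small RNAs elsewhere in the cell. A LINC symbol says only that the gene lay between coding genes when it was named, and many such genes have since been renamed. All 82 members matched an entry in RefSeq (assembly GRCh38.p14), 51 by symbol and 31 by an older synonym. RefSeq now lists 70 of them as long non-coding, 11 as protein coding and 1 as a transcribed pseudogene, and 14 overlap the span of a coding gene. The table's build is hg19, so positions are given only with the promoter windows, which are RefSeq's.

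Promoter windows are shown for 6 members that lay on the same side of their controls in all 10 targeted libraries, 3 lower (LINC00426, LINC00689, LINC00963) and 3 higher (LINC00910, LINC00863, LINC00324). Each is the RefSeq sequence from 250 bases before to 50 bases after the annotated start, 300 bases in all, 5′ to 3′ on the gene's strand in GRCh38.p14. Capitals mark matches, on either strand, to the E-box CACGTG, the RBPJ core TGGGAA, the GATA motif AGATAA, the RUNX motif TGTGGT or the ETS motif CCGGAAGT.
LINC00426 (chr13:30373865-30374164, minus strand): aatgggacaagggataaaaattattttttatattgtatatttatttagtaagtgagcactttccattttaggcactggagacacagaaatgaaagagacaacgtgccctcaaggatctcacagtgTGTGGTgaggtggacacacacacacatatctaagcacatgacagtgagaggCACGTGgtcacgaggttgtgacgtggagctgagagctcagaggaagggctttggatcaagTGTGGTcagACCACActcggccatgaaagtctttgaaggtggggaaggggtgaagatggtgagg
LINC00689 (chr7:159008104-159008403, plus strand): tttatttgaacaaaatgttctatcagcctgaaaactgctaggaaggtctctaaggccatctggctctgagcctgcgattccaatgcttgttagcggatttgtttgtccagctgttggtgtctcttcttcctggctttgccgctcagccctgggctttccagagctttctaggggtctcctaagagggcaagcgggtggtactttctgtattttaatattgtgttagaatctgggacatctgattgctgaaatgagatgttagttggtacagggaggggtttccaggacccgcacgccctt
LINC00963 (chr9:129488410-129488709, plus strand): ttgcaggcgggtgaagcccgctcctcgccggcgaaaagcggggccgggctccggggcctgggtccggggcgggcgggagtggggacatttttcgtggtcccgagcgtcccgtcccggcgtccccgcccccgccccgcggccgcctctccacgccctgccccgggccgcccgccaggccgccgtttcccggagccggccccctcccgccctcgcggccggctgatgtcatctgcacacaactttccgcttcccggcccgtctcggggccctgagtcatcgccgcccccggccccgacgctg
LINC00910 (chr17:43388849-43389148, minus strand): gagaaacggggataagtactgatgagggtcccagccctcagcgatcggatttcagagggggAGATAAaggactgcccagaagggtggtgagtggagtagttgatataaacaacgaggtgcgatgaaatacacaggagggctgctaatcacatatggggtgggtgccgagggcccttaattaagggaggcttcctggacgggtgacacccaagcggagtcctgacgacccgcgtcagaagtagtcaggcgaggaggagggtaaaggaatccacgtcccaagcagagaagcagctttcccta
LINC00863 (chr10:87342486-87342785, plus strand): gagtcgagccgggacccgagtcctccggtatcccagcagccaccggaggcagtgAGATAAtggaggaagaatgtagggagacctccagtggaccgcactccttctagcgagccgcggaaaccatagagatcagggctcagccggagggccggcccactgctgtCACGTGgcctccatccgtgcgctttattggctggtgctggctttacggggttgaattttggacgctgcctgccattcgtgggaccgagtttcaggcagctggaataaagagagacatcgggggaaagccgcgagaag
LINC00324 (chr17:8223994-8224293, minus strand): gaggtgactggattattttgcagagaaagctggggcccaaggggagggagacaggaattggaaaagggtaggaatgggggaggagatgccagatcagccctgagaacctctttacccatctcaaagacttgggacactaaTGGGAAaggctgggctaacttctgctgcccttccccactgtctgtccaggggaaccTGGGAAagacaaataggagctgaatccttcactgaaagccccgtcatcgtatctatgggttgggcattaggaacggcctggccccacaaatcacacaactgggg

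G and C made up 78.0% of the LINC00963 window, against 46.0% for LINC00426 and 48.0% for LINC00689 among the falling members. The windows of the rising members held 53.3% (LINC00324), 55.0% (LINC00910) and 60.3% (LINC00863). The LINC00426 window had 3 RUNX matches and 1 E-box, LINC00863 had 1 E-box and 1 GATA match, LINC00910 had 1 GATA match and LINC00324 had 2 matches to the RBPJ core. None of these letters occurred in the windows of LINC00689 and LINC00963. The RUNX letters were in 12 of the 62 members' windows at hand (19.4%), in 10.1% of the windows of all tested genes and in 13.1% of all 35116 windows. The RBPJ core was in 29.0% of members' windows (18), 21.7% of those of tested genes and 24.0% of all windows. The E-box was in 11.3% (7), 9.33% and 7.26%, in that order. The GATA letters were in 14.5% (9), 5.86% and 10.3%, and the ETS letters in 16.1% (10), 7.64% and 4.14%. No motif of this set overlaps another in the printed windows, and a match describes the letters only, not a bound site.

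The libraries held 34547469 to 72178929 recovered reads each. The 10 T-lineage markers were all measured, and their summed level was 76402 to 98384 normalised counts in targeted libraries and 147773 to 203182 in controls. B-lineage markers summed to 151 to 573 in targeted libraries and 352 to 2667 in controls, and MS4A1 and PAX5 stayed below 20 everywhere. All 4 erythroid markers stayed below 20, as did LYZ, MPO, CSF1R and ITGAM among the 5 myeloid ones, and EPCAM and KRT18. One library stood apart: KOPTK1 sgRNA replicate 1 had 426 normalised counts of COL1A1 and 276 of COL1A2, collagen genes of fibroblasts, against at most 52.5 and 4.76 in the other 15 libraries. Results are given with it. Without it 17 members rose and 29 fell in KOPTK1, 16 rose and 28 fell with guides, and 18 had a guide response that differed between lines. The distance between libraries, as mean chi-square per gene (1 is counting noise alone), ran from 2.34 to 6.75 within a group. For CUTLL1 sgRNA replicate 1 and ASO replicate 1, which the labels give as different agents, it was 1.73.

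The 16-library mean was below 100 normalised counts for 35 members, 100 to 1000 for 39 and 1000 or more for 8. LINC00657, now named NORAD, an RNA that binds Pumilio proteins and is induced by DNA damage, held 38.4% of the members' summed level. It had 11753 and 12453 normalised counts in targeted HPB-ALL libraries, against 10387 and 10369 in its controls. These values are not per transcript length, so levels are compared between libraries and not between genes.

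The first question is which members set the lines apart before targeting, in the 6 control libraries alone. Of 80 members tested with limma, 73 differed between the lines at an adjusted p (Benjamini-Hochberg) under 0.05, where 92.7% of all tested genes did. HPB-ALL minus CUTLL1 gave 24 members higher and 29 lower, with 40.1% and 39.3% of all genes. HPB-ALL minus KOPTK1 gave 35 higher and 25 lower (39.7% and 39.9% of all genes), and CUTLL1 minus KOPTK1 gave 36 higher and 22 lower (37.8% and 38.3%). With a 2-fold limit, 15 members were higher and 16 lower in HPB-ALL minus CUTLL1, against 14.2% and 15.1% of all genes. A control mean of 20 or more in all 3 lines was found for 56 members (68.3%) and for 83.5% of all genes of mean 20 or more. Another 10 members reached it in 1 line only, and the matching share of all genes was not computed. The members named next were picked for their control differences, and several owe their place among the members to 1 line. Their folds and p-values describe that choice and support nothing further.

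LINC00648, LINC00885 and LINC00877 marked HPB-ALL. LINC00648 had 1115 and 1037 normalised counts in HPB-ALL controls, none in CUTLL1 controls, and 0 and 2.61 in KOPTK1 controls. Taking the limit of 3 counts per library that a count of 0 allows, it was at least 311.5-fold higher in HPB-ALL than in CUTLL1. LINC00885 had 256 and 234 in HPB-ALL, 0 in both CUTLL1 controls, and 0.969 and 3.26 in KOPTK1, at least 71.0-fold higher in HPB-ALL than in CUTLL1. All 3 of these members were far above the other lines with no overlap. LINC00877 had 161 and 170.5 in HPB-ALL, 0.976 and 3.45 in CUTLL1 and 0 in both KOPTK1 controls, at least 57.1-fold higher in HPB-ALL than in KOPTK1. LINC00689 was graded, with 231 and 225 in HPB-ALL, 45.9 and 35.7 in CUTLL1, and 8.72 and 9.13 in KOPTK1. Its log2 differences were 2.47 for HPB-ALL minus CUTLL1 (SE 0.18, adjusted p = 1.02e-05) and 2.06 for CUTLL1 minus KOPTK1 (SE 0.18, adjusted p = 3.44e-05), from limma.

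CUTLL1 was marked by LINC00461, the host gene of a miR-9 precursor (MIR9-2HG), a microRNA best known from neural development. It had 1.32 and 0.952 normalised counts in HPB-ALL controls, 636 and 651 in CUTLL1 controls, and 0 in both KOPTK1 controls. In CUTLL1 it was at least 221-fold higher than in KOPTK1, and log2 HPB-ALL minus CUTLL1 was -8.24 (SE 0.23, limma adjusted p = 5.81e-08). LINC00461 reached the level limit through CUTLL1, so these values are a description. LINC00954 had 0 and 0.952 in HPB-ALL, 193 and 181 in CUTLL1 and 35.8 and 35.9 in KOPTK1. LINC00539 had 25.1 and 23.8 in HPB-ALL, 106 and 117 in CUTLL1 and 9.69 and 14.3 in KOPTK1. LINC00936, the antisense partner of the calcium pump gene ATP2B1 (ATP2B1-AS1), had 44.9 and 29.5 in HPB-ALL, 173 and 127 in CUTLL1 and 17.4 and 15.6 in KOPTK1. For each of the 4 the CUTLL1 values lay above every other control. LINC00632, from whose locus the circular RNA CDR1as comes, had 0 in both HPB-ALL controls, 48.8 and 49.5 normalised counts in CUTLL1 controls, and 0 in both KOPTK1 controls.

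KOPTK1 was marked by LINC00944, with 2.64 and 0.952 normalised counts in HPB-ALL controls, 0 in both CUTLL1 controls, and 195 and 168 in KOPTK1. LINC00861, an RNA known from lymphocytes, had 6.61 and 9.52 in HPB-ALL, 8.78 and 6.91 in CUTLL1, and 176 and 176 in KOPTK1. The log2 difference of LINC00861 was -4.31 for HPB-ALL minus KOPTK1 (SE 0.24, limma adjusted p = 1.79e-06) and -4.33 for CUTLL1 minus KOPTK1 (SE 0.24, adjusted p = 2.49e-06). KOPTK1 was higher in both by an amount far beyond the gap between its 2 controls. LINC00861 reached the level limit through these controls, so its differences are a description. LINC00051 had 0 in both HPB-ALL controls, 27.3 and 27.6 in CUTLL1, and 81.4 and 99.8 in KOPTK1. LINC00341, which RefSeq now gives to SYNE3, the nuclear-envelope protein nesprin-3, had 1.32 and 3.81 in HPB-ALL, 147 and 157 in CUTLL1, and 340.0 and 336 in KOPTK1. Its CUTLL1 minus KOPTK1 difference of -1.15 (SE 0.32, limma adjusted p = 0.0130) no longer passed without any 1 of the 4 controls of those lines.

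**Figure D1:**
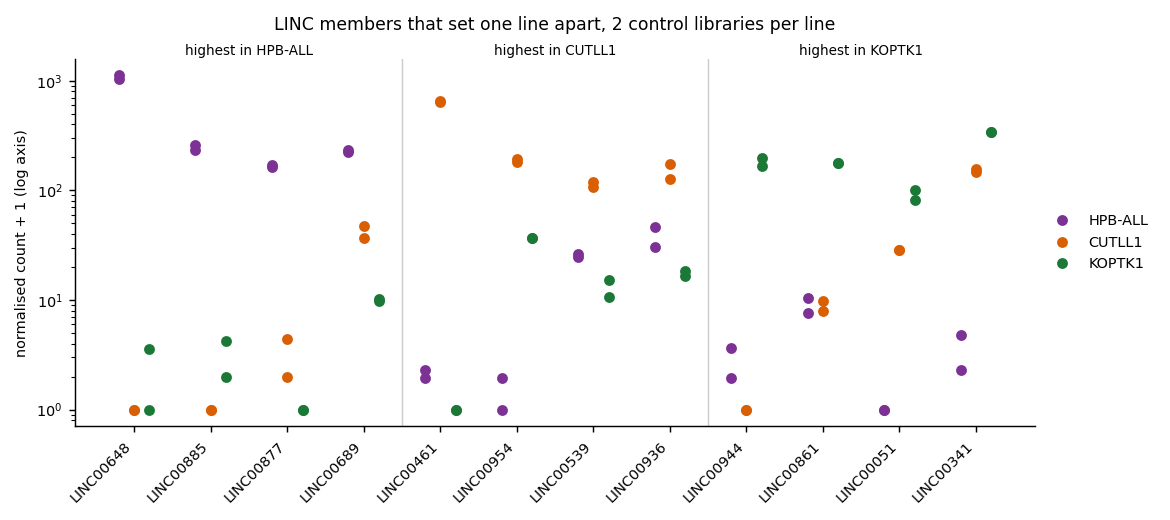
Normalised read count plus 1 (log axis) of the 12 LINC members that most set 1 line apart, in the 6 control libraries. Each point is 1 library, 2 per line, coloured by line; LINC00648 is above 1000 in HPB-ALL and near 0 elsewhere, and LINC00341 is at 147 and 157 in CUTLL1 against 340.0 and 336 in KOPTK1.

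The second question is how the members responded when lnrCXCR4 was targeted, over all 16 libraries with experiment as a term. LINC00861, LINC00426, LINC00977, LINC00563, LINC00689 and LINC00963 fell most, and LINC00910, LINC00863, LINC00324 and LINC00959 rose by 2-fold or more. In all, 57 of 82 members passed an adjusted p under 0.05 in limma, where 75.0% of all 14020 genes did. Of these, 22 members rose (36.2% of all genes) and 35 fell (38.8% of all genes). With a 2-fold limit, 4 rose and 13 fell, against 3.67% and 11.4% of all genes. Without KOPTK1 sgRNA replicate 1 the counts were 22 and 33. The median log2 change was -0.17 over the members and -0.03 over all genes. Under quantile scaling, which moved the median of all genes from -0.03 to 0.07, 30 members rose and 28 fell. Here and below, counts under quantile scaling come without shares of all genes. Their shift is thus not shown to be particular to the members. In such bulk RNA, fewer cells with a transcript and less of it per cell cannot be told apart.

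Genes with antisense names had a median log2 change of -0.20 over 189 genes, 59 higher and 83 lower. The SNHG genes, hosts of small nucleolar RNAs, had -0.35 over 14 genes, 4 higher and 9 lower. Over the 82 members, 16 were above their mean control in all 10 targeted libraries, as were 28.6% of all genes. Another 25 were below it in all 10, as were 29.8% of all genes.

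**Figure D2:**
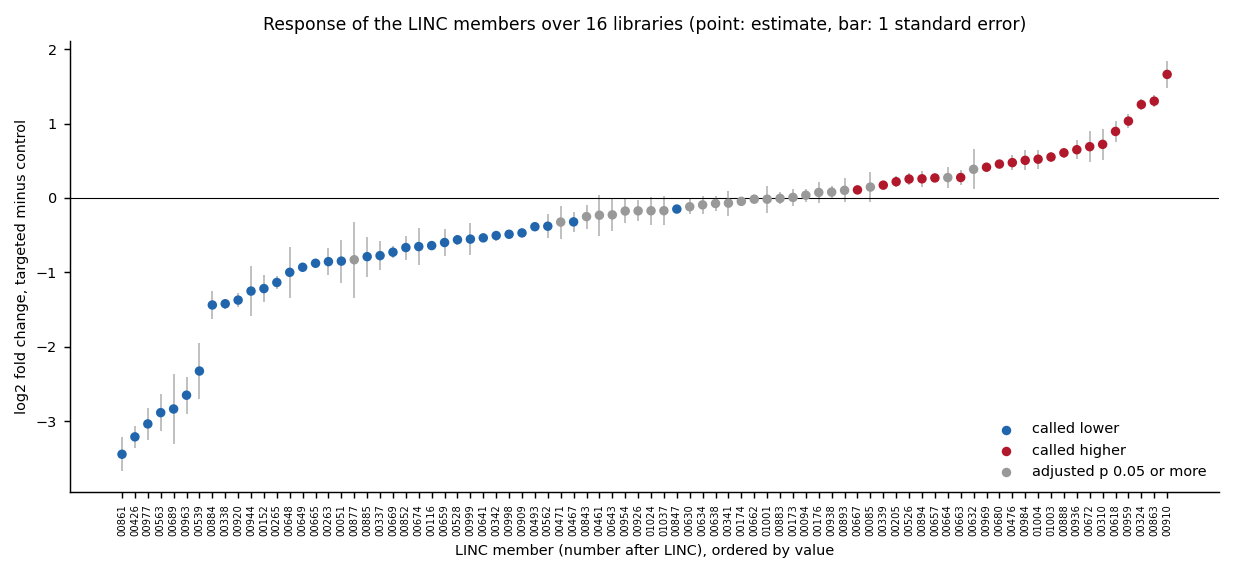
Log2 change (targeted minus control, 16 libraries) of each of the 82 LINC members, ordered by value, with bars of 1 standard error. Blue points are the 35 that fell and red points the 22 that rose at an adjusted p under 0.05; 6 members at the left lie below -2.6, and LINC00910 at the right is at 1.66.

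Of the lymphoid RNAs, LINC00426 fell in every line. It had 80.6 and 81.5 normalised counts in targeted HPB-ALL libraries, against 858 and 828 in HPB-ALL controls. CUTLL1 had 37.8 and 41.7 with guides and 40.0 and 28.6 with ASOs, against 500.5 and 469.8 in its controls. KOPTK1 had 134 and 113 with guides and 128 and 114 with ASOs, against 731 and 771 in its controls. Every targeted library was below every control library, whichever the line. The joint log2 change was -3.21 (SE 0.15, limma adjusted p = 1.91e-10), a 9.25-fold lower level, and both delivery routes gave -3.21 on their own. The line responses were -3.36 in HPB-ALL, -3.69 in CUTLL1 and -2.61 in KOPTK1. KATNAL1, a coding neighbour, had a log2 change of -0.09 (adjusted p = 0.171). Here a neighbour, or a coding gene given as beside a member, is the nearest on that side in RefSeq order, at any distance.

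LINC00861 was listed at 0 in all 6 targeted libraries of HPB-ALL and CUTLL1. In KOPTK1 it had 16.01 and 8.06 with guides and 13.1 and 6.70 with ASOs, against 176 and 176 in its controls. The KOPTK1 groups lay far apart, and the log2 change there was -3.96 (SE 0.35, limma adjusted p = 8.99e-07). Every library except the KOPTK1 controls was below 20, so LINC00861 reached the level limit through those controls. This fall and its p-value therefore describe the choice and support nothing further. Against the limit of 3 counts per library, LINC00861 was at least 3.37-fold lower in targeted HPB-ALL and at least 2.56-fold lower in targeted CUTLL1 libraries. The joint estimate of -3.44 (SE 0.23) depends on the pseudocount for that reason. LINC00926, the other lymphoid member, had 40.7 to 100.1 normalised counts in targeted libraries and 49.5 to 107 in controls, and a log2 change of -0.17 that did not pass (adjusted p = 0.272). By count, 2 of the 3 lymphoid members fell and none rose, where 38.8% of all genes fell and 36.2% rose. The 2 include LINC00861, which was chosen through its KOPTK1 controls. The count is therefore a description and supports no comparison with all genes. The summed T-lineage markers were also lower in targeted libraries of each line, 93967 to 98384 against 198665 to 203182 in HPB-ALL, and their part in the result was not tested.

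LINC00977 had 37.5 and 24.6 normalised counts in targeted HPB-ALL libraries, against 359 and 280.0 in controls. Its nearest coding gene on one side in RefSeq order is the oncogene MYC, at a distance that was not measured. CUTLL1 had 97.6 and 123 with guides and 152 and 129.7 with ASOs, against 1669 and 1605 in its controls. KOPTK1 had 309 and 282 with guides and 272 and 304 with ASOs, against 1285 and 1275 in its controls. All 10 were below the controls of their own line, by 10.1-fold in HPB-ALL, 13.1-fold in CUTLL1 and 4.38-fold in KOPTK1. The joint log2 change was -3.04 (SE 0.21, limma adjusted p = 1.31e-08), and that of MYC was -2.12 (SE 0.12, adjusted p = 1.23e-09).

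LINC00563 had 3.19 to 26.8 normalised counts in the 10 targeted libraries (median 17.4) and 78.1 to 148 in the 6 controls (median 92.3). LINC00689 had 1.34 to 8.46 (median 4.69) in targeted libraries and 8.72 to 231 (median 40.8) in controls. LINC00963, studied as a regulator of growth signalling in tumours, had 0 to 225 (median 22.9) in targeted libraries and 11.7 to 999 (median 209) in controls. LINC00563 and LINC00689 did not overlap between arms, for LINC00689 only narrowly (8.46 against 8.72). LINC00963 overlapped across lines but not within any line. Their joint log2 changes in limma were -2.88 (SE 0.25), -2.84 (SE 0.47) and -2.65 (SE 0.25), with adjusted p of 1.02e-07, 7.82e-05 and 2.83e-07. Of their neighbours, VIPR2, a receptor for vasoactive intestinal peptide beside LINC00689, fell by 0.70 (adjusted p = 2.17e-10). IER5L, beside LINC00963, rose by 0.84 (adjusted p = 0.0236). LINC00689 was below 20 in every targeted library and LINC00563 had a targeted median below 20. Both thus reached the level limit largely through their controls. The falls, p-values and lack of overlap of LINC00563 and LINC00689 describe that choice and support nothing further.

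**Figure D3:**
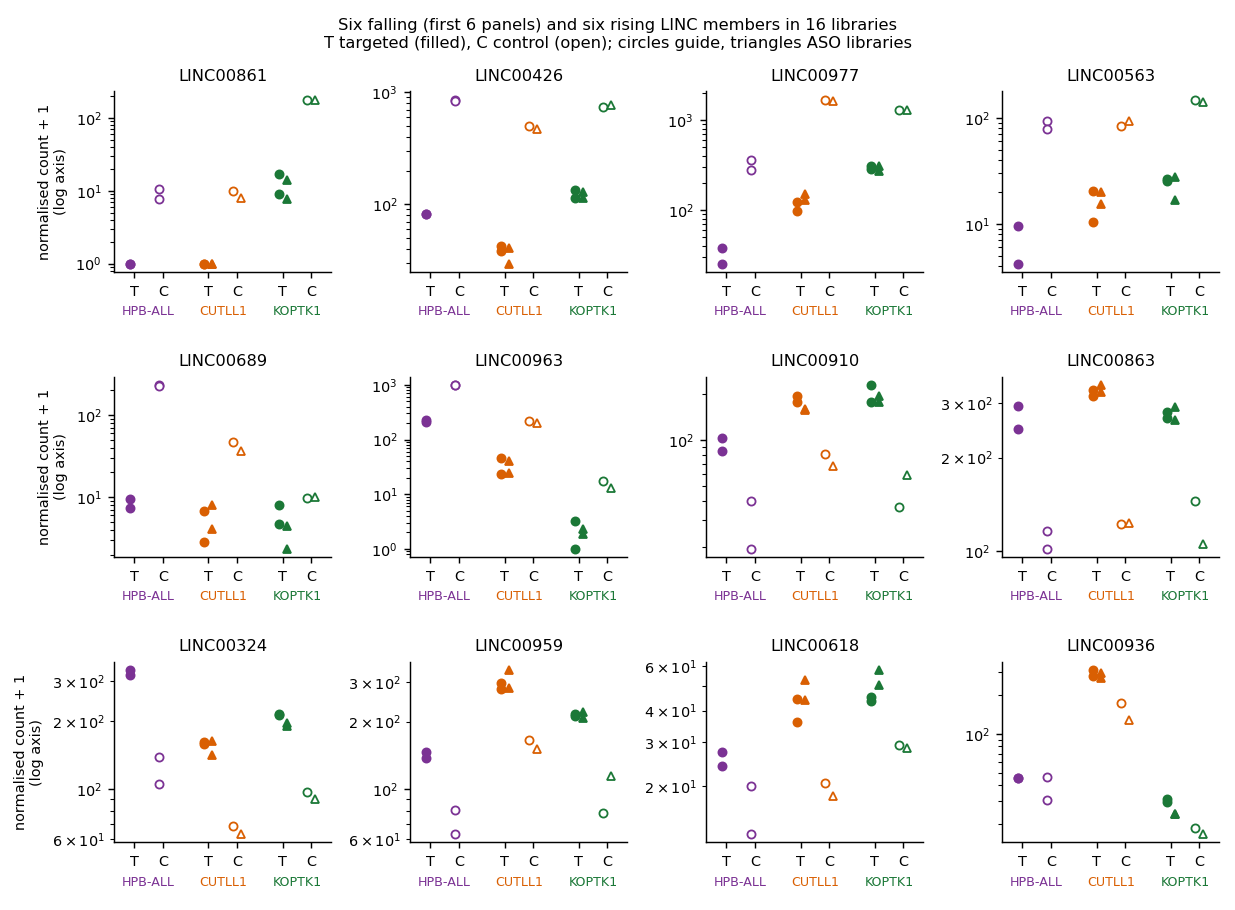
Normalised read count plus 1 (log axis) in all 16 libraries for the 6 members that fell most and the 6 that rose most with all 10 targeted libraries on the same side. Filled symbols are targeted (T) and open ones control (C), circles guides and triangles ASOs; LINC00936 in HPB-ALL is the panel in which targeted and control libraries meet.

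Among the rising members LINC00910 changed most. It had 83.8 and 101.5 normalised counts in targeted HPB-ALL libraries, against 18.5 and 39.0 in controls. CUTLL1 had 176 and 191 with guides and 157 and 159 with ASOs, against 80.0 and 66.8 in its controls. KOPTK1 had 228 and 177 with guides and 176 and 193 with ASOs, against 35.8 and 58.0 in its controls. All 10 targeted libraries were above all 6 controls. The joint log2 change was 1.66 (SE 0.18, limma adjusted p = 9.70e-07), or 3.16-fold.

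LINC00863 had 247 to 343 normalised counts in the targeted libraries (median 291) and 100.4 to 143 in controls (median 118), with no overlap. Its log2 change was 1.30 (SE 0.08, limma adjusted p = 1.97e-09). NUTM2A and NUTM2D, the coding genes on either side, belong to a family of near-identical copies and may share reads. They rose by 1.31 and 1.13 (adjusted p = 1.84e-05 and 3.83e-06). LINC00324 had 141 to 336 (median 192) in targeted libraries and 62.2 to 138 (median 92.6) in controls, again without overlap, and a log2 change of 1.25 (SE 0.08, adjusted p = 3.64e-09). The genes beside it, the mitotic kinase AURKB and the telomere gene CTC1, rose by 0.30 and 0.27.

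LINC00959, now the coding gene C10orf143, had 136 to 338 normalised counts in targeted libraries (median 218) and 62.1 to 164 in controls (median 96.7), and its log2 change was 1.03 (SE 0.09, limma adjusted p = 1.25e-07). LINC00618 had 23.1 to 56.9 (median 43.1) in targeted libraries and 11.9 to 28.1 (median 19.3) in controls, and a log2 change of 0.89 (SE 0.14, adjusted p = 5.33e-05). Both overlapped across lines, but within each line the targeted libraries were higher. The nearest coding gene to LINC00618 on one side in RefSeq order is BCL11B, a transcription factor of T-cell development, at a distance that was not measured. BCL11B fell by 1.13 (SE 0.11, limma adjusted p = 3.04e-07).

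LINC00936 rose by 0.65 (SE 0.12, limma adjusted p = 2.96e-04), with 1.94-fold more in CUTLL1 and 1.53-fold in KOPTK1. In HPB-ALL the targeted libraries had 44.7 and 44.6 normalised counts and the controls 44.9 and 29.5, which overlap. ATP2B1, which it overlaps, rose by 0.57 (adjusted p = 2.94e-10). The use of strand in counting is not given in the sources used here, so reads of these partners may be mixed.

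Across the set, 103 pairs of a member and an adjacent coding gene could be tested, without genes that overlap a member. In 58 pairs both passed the threshold, and 38 of these moved the same way. The share for adjacent pairs among all genes was not computed, so these are counts only. For the 6 falling and 6 rising members named first above, 13 of 17 tested neighbours passed, a share near the 75.0% of all genes, and 9 moved in the member's direction. LINC00884, now ATP13A3-DT, fell by 1.44 (SE 0.19, limma adjusted p = 6.81e-06), while ATP13A3 had a log2 change of -0.02 (adjusted p = 0.803). ATP13A3 overlaps LINC00884 in RefSeq, so this pair is not among the 103, and reads of the partners may be mixed. LINC00337, now ICMT-DT, fell by 0.77, while ICMT had 0.03 (adjusted p = 0.416). DT marks a transcript that starts beside a coding gene and runs the other way. These last pairs were chosen after their values were seen.

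Of the widely studied RNA regulators, 6 of the 9 listed were members, and 1 rose and 4 fell (36.2% and 38.8% of all genes). NORAD rose by 0.27 (SE 0.04, limma adjusted p = 3.35e-05). LINC00152, now CYTOR, an RNA linked to the cytoskeleton and to growth of many tumours, had 61.7 to 229 normalised counts in targeted libraries (median 198) and 275 to 396 in controls (median 329), and fell by 1.22 (SE 0.19, adjusted p = 3.80e-05). LINC00665 fell by 0.88 (SE 0.04, adjusted p = 2.06e-10). LINC00467 fell by 0.32 (adjusted p = 0.0377), which was lost when any 1 of 9 libraries was left out, and with TMM or quantile scaling, no filter or the replicate number as a block. LINC00662 had a log2 change of -0.02 (adjusted p = 0.769), with quantile scaling 0.23.

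Of the list of genes renamed for small proteins, extended by members that RefSeq calls coding, 11 of 17 were members, and 3 rose and 3 fell (36.2% and 38.8% of all genes). LINC00116 encodes mitoregulin (MTLN), a short peptide of the inner mitochondrial membrane. It had 178 to 621 normalised counts in targeted libraries and 342 to 839 in controls, overlapping across lines but lower in each line, and fell by 0.64 (SE 0.06, limma adjusted p = 4.95e-07). LINC00493 (SMIM26) and LINC00998 (SMIM30), both for small integral membrane proteins, fell by 0.39 and 0.49 (adjusted p = 7.70e-07 and 6.05e-06). LINC00959, LINC00672 (LASP1NB) and LINC00984 (INAFM2) rose by 1.03, 0.69 and 0.51. LINC00672 rose in HPB-ALL and CUTLL1, by 1.13 and 1.15, and had -0.10 in KOPTK1 (adjusted p = 0.714).

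Of the 5 listed hosts of microRNAs or circular RNAs, 2 were members, LINC00461 and LINC00632, and neither passed the joint limma test (adjusted p = 0.457 and 0.209). LINC00461 had -0.23 in that fit, and edgeR on recovered reads gave -0.58 with an adjusted p of 0.0150. LINC00461 had 386 to 468 normalised counts in targeted CUTLL1 libraries, against 636 and 651 in controls. LINC00338, now SNHG20, a host of small nucleolar RNAs, fell by 1.42 (SE 0.07, limma adjusted p = 2.04e-10). It had 162 to 297 in targeted libraries and 529 to 683 in controls, with no overlap. At the other end, LINC00883 (DUBR), LINC00173 and LINC01001 moved least, with joint log2 changes of -0.01, 0.01 and -0.02 and 95% intervals of -0.18 to 0.17, -0.25 to 0.26 and -0.41 to 0.38. With quantile scaling LINC00883 had 0.30 (adjusted p = 0.00451) and LINC00173 had 0.28 (adjusted p = 0.0434), both then called higher.

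LINC00893 and LINC00894, which run beside the near-identical genes EOLA1 and EOLA2, may share reads, so their values are uncertain. They had log2 changes of 0.10 (adjusted p = 0.572) and 0.26 (adjusted p = 0.0482).

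The third question is whether the lines responded alike. In HPB-ALL 18 members rose and 33 fell (34.0% and 36.9% of all genes), in CUTLL1 19 and 28 (35.2% and 36.2%), and in KOPTK1 17 and 31 (34.9% and 37.4%), by limma over 10 group means. With quantile scaling these counts were 26 and 24, 28 and 22, and 26 and 25, again without shares of all genes. In CUTLL1 and KOPTK1 the response is the mean of the guide and ASO responses. All 3 lines agreed on a fall for 23 members (25.5% of all genes) and on a rise for 10 (24.7% of all genes). Another 19 members passed in no line, a count without a share of all genes beside it and so not shown to be particular to the members. The guide response itself differed between the lines for 20 members in an F test, where 43.7% of all genes did. Without the KOPTK1 non-targeting guide library 11 members did.

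LINC00094, now BRD3OS, moved in opposite directions. In RefSeq it overlaps the span of the bromodomain gene BRD3, so reads of both may be mixed. LINC00094 had 2080 and 1982 normalised counts in targeted HPB-ALL libraries, against 1455 and 1488 in controls. CUTLL1 had 1531 and 1522 with guides and 1548 and 1504 with ASOs, against 1467 and 1487 in controls. KOPTK1 had 958 and 902 with guides and 991 and 946 with ASOs, against 1165 and 1162 in controls. It was higher than controls in HPB-ALL and lower in KOPTK1, with narrow gaps in CUTLL1. The log2 responses were 0.46 (SE 0.05), 0.05 (SE 0.04) and -0.29 (SE 0.04), and the guide responses differed (limma F test, adjusted p = 4.13e-05). Over all libraries the joint change was 0.04 (adjusted p = 0.707).

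LINC00263, now OLMALINC and named for oligodendrocyte maturation, fell in all lines to unlike degrees. It had 104.5 and 88.4 normalised counts in targeted HPB-ALL libraries, against 345 and 340.0 in controls, and a response of -1.82 (SE 0.11). The other lines had -0.30 in CUTLL1 (SE 0.10) and -0.68 in KOPTK1 (SE 0.10), and the F test gave an adjusted p of 1.04e-04. The CUTLL1 response was lost when either CUTLL1 control was left out, and with quantile scaling. CYTOR fell by 2.06 (SE 0.10) in KOPTK1, more than by 0.93 (SE 0.11) in HPB-ALL and 0.60 (SE 0.10) in CUTLL1 (adjusted p = 6.26e-04). SCD, the fatty acid desaturase gene beside LINC00263, had a joint log2 change of 0.20 (adjusted p = 0.0986).

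**Figure D4:**
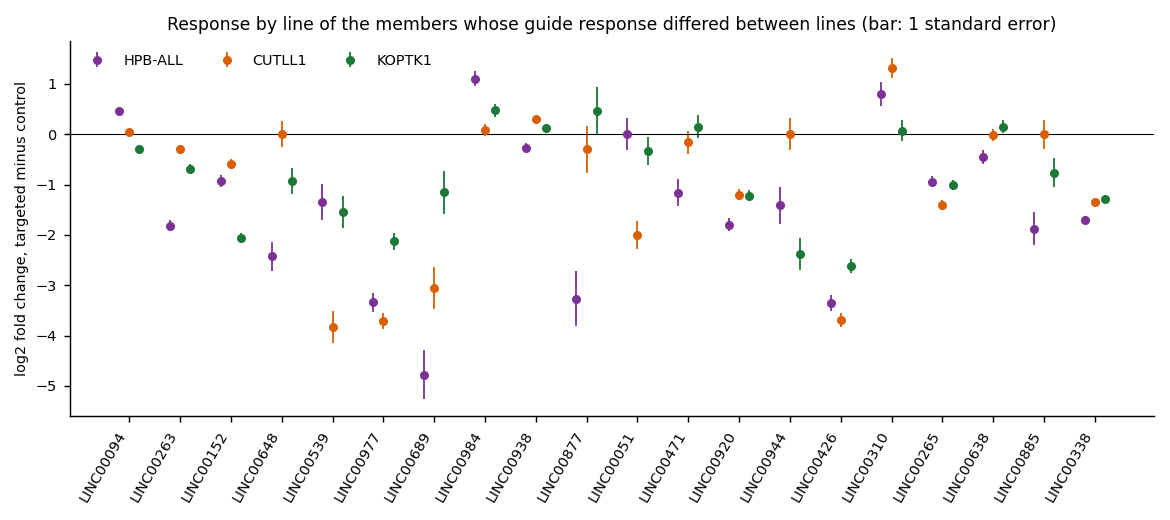
Log2 response to targeting (targeted minus control) in HPB-ALL, CUTLL1 and KOPTK1, with bars of 1 standard error, for the 20 members whose guide response differed between lines. LINC00094 at the left is at 0.46 in HPB-ALL and -0.29 in KOPTK1, and LINC00539 is lowest in CUTLL1 at -3.83.

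Several line-marking RNAs fell in the line that holds them. LINC00648 had 206 and 192 normalised counts in targeted HPB-ALL libraries, against 1115 and 1037 in controls, a response of -2.43 (SE 0.30, limma adjusted p = 1.55e-05). LINC00539 had 5.53 and 2.84 with guides and 9.99 and 13.3 with ASOs in CUTLL1, against 106 and 117 in controls, a response of -3.83 (SE 0.31, adjusted p = 5.06e-07). LINC00944 had 36.9 and 27.6 with guides and 40.3 and 32.2 with ASOs in KOPTK1, against 195 and 168 in controls, a response of -2.38 (SE 0.32, adjusted p = 3.20e-05). In each of these lines no targeted library reached a control. LINC00539 and LINC00944 reached the level limit through the controls of these lines, and LINC00648 through HPB-ALL. Their falls and p-values here describe that choice and support nothing further. The guide responses differed between lines for LINC00648, LINC00539 and LINC00944 (F test, adjusted p = 0.00165, 0.00187 and 0.0193). For LINC00648 and LINC00944 at least 1 other line holds few or no counts in either arm. LINC00954 and LINC00341 had joint log2 changes of -0.18 and -0.07, neither past the threshold (adjusted p = 0.350 and 0.718).

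The last question is whether guides and ASOs gave the same response. With guides 16 of 79 members rose and 28 fell (32.7% and 35.0% of all genes), and with ASOs 16 of 77 rose and 25 fell (31.8% and 33.2%). With quantile scaling these counts were 26 and 24, and 25 and 20, again without shares of all genes. Without the scrambled-oligonucleotide library of CUTLL1, 10 members rose with ASOs. The guide and ASO fits share no library. Over the 74 members tested in both, the responses had Pearson's r of 0.957 and Spearman's rho of 0.915, across genes that are not independent replicates. The 33 members past the threshold in both all moved the same way, while 9 passed with guides only and 7 with ASOs only. The matching shares of all genes were not computed, so these counts are not shown to be particular to the members. The guide fit also holds HPB-ALL, which the ASO fit lacks.

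The guide minus ASO difference in CUTLL1 and KOPTK1 passed the limma threshold for 0 of 82 members (0.0% of all genes). At an unadjusted p under 0.05 it did for 4 members and 1393 genes, and edgeR called 0 members. One of these 4, LINC00648, is at 0 in every library of these lines but 1 control. Over the 78 members that average at least 20 across the 12 CUTLL1 and KOPTK1 libraries, the differences ran from -1.03 (LINC00674) to 0.86 (LINC00643) in log2. Their 95% intervals reached a median of 0.52 to either side, and for an interval of that width a smaller difference was not detectable. The threshold adjusted over all genes is stricter than a single 95% interval, and the -1.03 of LINC00674 did not pass it. The 0 calls therefore do not exclude differences above 0.52. LINC00910 had 1.79 (SE 0.25) with guides and 1.44 (SE 0.15) with ASOs, LINC00963 had -2.65 (SE 0.35) and -2.65 (SE 0.33), and LINC00618 had 0.74 (SE 0.18) and 1.17 (SE 0.22).

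**Figure D5:**
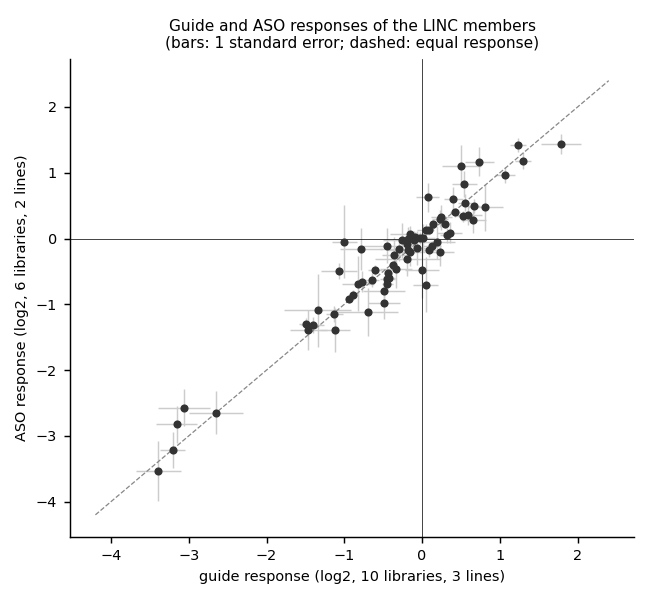
Log2 response with guides (10 libraries, 3 lines) against that with ASOs (6 libraries, 2 lines) for the 74 members tested in both, with bars of 1 standard error and a dashed line of equal response. Points follow the dashed line, from the falling members near -3 to LINC00910 at 1.79 and 1.44.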

How the data were processed

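The authors deposited 1 table of 57820 genes by 16 libraries, in which each value is a signal, the normalised read count of a gene. Per the submitters' processing notes, STAR (1.4.2), DESeq2 and hg19 are named, without their roles. No source used here gives the counter, the annotation or the use of strand. Every column held whole multiples of 1 step (100% of values, tolerance 1e-06), so whole reads were recovered.

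The members and lists were chosen with earlier results of these data known. log2(normalised count + 1) was fitted in limma (3.58.1, R 4.3.3; trended empirical Bayes, Benjamini-Hochberg) for genes whose mean over the fit's libraries was at least 20; this scale understates changes of low genes. The joint fit took experiment as a term, the guide and ASO fits cell line, and the control fit the 6 controls by line. Line responses, their F test and guide minus ASO came from 10 group means over 16 libraries, where a lone control is assumed to vary like the other groups. The fits were tested on simulated counts.

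Members named are the 6 rising and 6 falling most with all 10 targeted libraries on 1 side of their control, the 4 per line that set controls apart most, the 5 of smallest F-test p, the 3 with the least change, role-list members and adjacent coding genes. Alternatives were a pseudocount of 5, no filter, quantile or TMM scaling, edgeR (4.0.16) on recovered reads without CUTLL1 ASO replicate 1, whose step lies too near 1 to check, the replicate number as a block, and leaving out each library. edgeR called 10838 of 14013 genes in the joint comparison. Precision is limited by 34547469 to 72178929 reads per library and by the number of libraries; the bounds from 3 counts cover counting error only. Promoters are RefSeq's, and 62 members matched one.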

Additional observations from a re-analysis of the deposited data

Results flagged for a closer look

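For 20 members the guide response differed between HPB-ALL, CUTLL1 and KOPTK1, by an F test in limma with adjustment over all genes. The adjusted p was 4.13e-05 for LINC00094, 1.04e-04 for LINC00263, 6.26e-04 for LINC00152, 0.00165 for LINC00648 and 0.00187 for LINC00539, whose values are given above. LINC00977 (adjusted p = 0.00347) and LINC00426 (0.0194) fell in all lines, least in KOPTK1. LINC00689 (0.00447) fell by 4.78 in HPB-ALL, 3.06 in CUTLL1 and 1.16 in KOPTK1. Its controls were graded in the same order and its targeted libraries held 1.34 to 8.46 normalised counts, so the fall that could be measured differed between lines. The CUTLL1 and KOPTK1 responses in this section average guides and ASOs, while the F test used guide responses alone.

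LINC00984 (0.00588) rose by 1.10 in HPB-ALL and 0.48 in KOPTK1 and had 0.08 in CUTLL1. LINC00938 (0.00808) fell by 0.27 in HPB-ALL and rose by 0.29 in CUTLL1. LINC00877 (0.00852) fell by 3.27 in HPB-ALL. It reached the level limit through that line alone, with 0 in both KOPTK1 controls and 0.976 and 3.45 in CUTLL1 controls, so no fall could be measured elsewhere. LINC00051 (0.0115) had 3.68 to 7.99 normalised counts in targeted CUTLL1 libraries, against 27.3 and 27.6 in controls, and was at 0 in every HPB-ALL library, where no fall could be measured. LINC00471 (0.0134) fell by 1.17 in HPB-ALL alone among the lines that passed the threshold. LINC00310 (0.0263) rose by 0.80 in HPB-ALL and 1.31 in CUTLL1 and had 0.07 in KOPTK1.

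LINC00920 (0.0185), LINC00265 (0.0321) and LINC00338 (0.0407) fell in every line. LINC00920 fell by 1.80 in HPB-ALL and 1.22 in KOPTK1, LINC00265 by 0.95 in HPB-ALL and 1.41 in CUTLL1, and LINC00338 by 1.70 in HPB-ALL and 1.28 in KOPTK1. LINC00944 (0.0193) and LINC00885 (0.0368) hold few or no counts in at least 1 line. LINC00638 (0.0360) fell by 0.45 in HPB-ALL and had -0.02 in CUTLL1 and 0.15 in KOPTK1. LINC00176 was called higher in HPB-ALL, by 0.48, and lower in KOPTK1, by 0.42, but its F test did not pass (adjusted p = 0.104).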

How the results depend on the processing

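Quantile scaling, which moved the median of all genes by about 0.1, raised the members called higher to 26 with guides, 25 with ASOs and 26 in KOPTK1, and turned LINC00883 to 0.30 (adjusted p = 0.00451) and LINC00662 to 0.23 (adjusted p = 0.0019). The replicate numbers do not pair the libraries, whose deviations correlated by -0.01 to 0.07; with the replicate block 10 members rose with ASOs, and no other count of members moved by over 1.5 times. Without a filter 1 member passed guide minus ASO, LINC00648 (0.93, adjusted p = 0.0415), with 1501 of 34609 genes; in these lines it is at 0 in all libraries but the KOPTK1 scrambled-oligonucleotide control, at 2.61, so this measures no guide minus ASO difference. Leaving out each library gave 10 to 17 members higher with ASOs and 11 to 24 with a guide response that differed between lines. The joint counts stayed at 19 to 22 higher and 29 to 34 lower. Of the results for named members under the alternatives, 1459 kept their side of the threshold (39 of them changed sign while below it), 29 lost a call, 5 gained one with the same sign, and LINC00883 and LINC00662, not called otherwise, gained one with the other sign. LINC00539 lost its KOPTK1 response without the scrambled-oligonucleotide library, and LINC00648 had 0 there. The causes were not tested. Depth limits the lowest members, and 2 control libraries per line limit every line comparison.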
